A study of Mus musculus with 6 samples.

Results

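The B cell surface genes described here were Cd22, Cd24a, Cd37, Cd38, Cd40, Cd72, Cd93, Cr2 and Bst1, 9 of the 21951 protein-coding genes of the GENCODE vM21 annotation of the mouse genome build GRCm38. They were chosen by name as surface molecules of B-lineage cells, with earlier results of these data known. Every peak near their transcription start sites (TSSs) or over their gene bodies was taken from a progenitor T and a progenitor B cell line. The lines were Scid.adh.2C2, a pro-T line (DN3 stage) that was subcloned from Scid.adh, a tumour line of CB17-Prkdc scid mice, and an Abelson-transformed mouse B cell progenitor line (the pre-B line), and the measurement was H3K4me3 ChIP-seq. Each line contributed 2 ChIP libraries with a Millipore H3K4me3 antibody and 1 input library, and the labels name no treatment, transgene or further allele in either. The libraries of a group are replicates of a single cell line, and each line stands alone for its lineage. The deposited peaks combined both replicates of a line in 1 list, so that no spread between replicates could be given, no difference between the lines was tested, and the read depth is unknown.

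H3K4me3 is a histone mark that accumulates around the start sites of genes that are transcribed or held ready for transcription, and at promoters rich in CpG dinucleotides it is present in most cell types. Surface molecules of B cells are acquired in steps. Cd24a and Cd93 are used to stage early progenitors, Cd22, Cd72 and Cd37 belong to the receptors and scaffolds that tune antigen receptor signals, Cd40 receives help from T cells, and Cr2 is a receptor of mature B cells for complement-coated antigen. Cd38 and Bst1 are neighbouring genes that encode ectoenzymes of the ADP-ribosyl cyclase family.

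A gene is called marked here if at least 1 bp of a peak fell within the 2500 bp either side of any of its annotated TSSs. In pre-B cells 8 of the 9 genes were marked, beside 48.2% of all protein-coding genes, and in Scid.adh.2C2 cells 3 were marked, beside 45.5%. Cd22, Cd38, Cd40, Cd93 and Bst1 were marked in the pre-B line only, a state shared by 5.96% of all protein-coding genes. Cd24a, Cd37 and Cd72 were marked in both lines, as were 42.2% of protein-coding genes, and Cr2 was marked in neither, as were 48.6%. None of the 9 genes was marked in Scid.adh.2C2 only, the state of 3.28% of protein-coding genes. These counts compare 2 peak lists, without a test, and an unmarked gene may still carry signal under the thresholds of the peak calling.

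The mark of Cd72 in Scid.adh.2C2 did not lie at its start. When a gene was counted only if its main TSS, the most upstream TSS of a protein-coding transcript, lay inside a peak, Cd72 joined the genes seen in the pre-B line only. By this stricter count, chosen after the data had been seen, the main TSS of the same 8 genes lay inside a pre-B peak, beside 39% of all genes, and that of 2 genes, Cd24a and Cd37, lay inside a Scid.adh.2C2 peak, beside 38.2%. The main TSS of 6 of the 9 genes then lay inside a peak in the pre-B line only, beside 5.27% of all genes.

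Most of the listed lineage markers were marked in the line of their own lineage. Of 9 T-lineage markers, 3 were marked in pre-B cells (Tcf7, Cd3d and Lck) and all 9 in Scid.adh.2C2, and of 8 B-lineage markers 7 were marked in the pre-B line, all but Ms4a1, and 1 in Scid.adh.2C2 (Vpreb1, 29.9-fold). Of 5 myeloid markers none was marked in either line, and of 2 erythroid markers Klf1 was marked in both. The Scid.adh.2C2 list held 15513 peaks with a median fold enrichment over background of 20.3, and the pre-B list held 19604 with a median of 15.4. Fold enrichments were therefore read only within a list, by their percentile among the highest promoter peaks of the marked genes of that line. The median of these highest peaks was 21.7 for pre-B cells and 27.1 for Scid.adh.2C2 cells. Of the lineage markers marked in both lines, Tcf7 and Cd3d had the higher percentile in Scid.adh.2C2. Vpreb1 and Lck went against their lineage. Vpreb1 was at the 64.6th percentile in Scid.adh.2C2 and the 46.6th in the pre-B line, and Lck at the 9.62nd and the 21.8th.

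**Figure D1:**
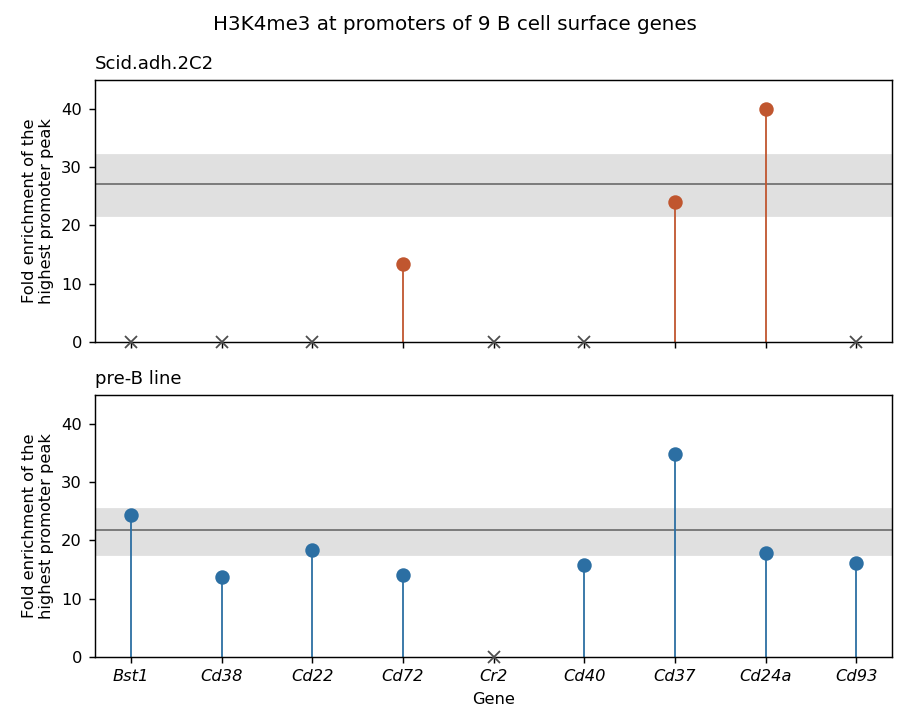
Fold enrichment of the highest promoter peak of each gene (vertical axis, linear, from 0) in Scid.adh.2C2 (upper panel) and the pre-B line (lower panel), with crosses for genes without a promoter peak. The grey band and line are the quartiles and median over all marked protein-coding genes of that line. In the pre-B line Cd37 lies above the band, Bst1, Cd22 and Cd24a within it and Cd38, Cd72, Cd40 and Cd93 below it, while in Scid.adh.2C2 only Cd24a, Cd37 and Cd72 have a point.

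For the 8 genes with a mark in the pre-B line, the highest promoter peaks ranged from 13.6-fold at Cd38 to 34.8-fold at Cd37, with a median of 17.0. The peaks of 6 genes were below the median of all marked genes, and those of Bst1 and Cd37 were above it. Their widths ranged from 1234 bp at Bst1 to 6511 bp at Cd37, with a median of 3021 bp beside 2278 bp over all marked genes. Cd38 and Cd93 combined a peak under the median fold with a width at or above the 90th percentile, which was true of 3.77% of all genes marked in the pre-B line. Height and width thus ordered these genes differently, with Bst1 second in height and last in width.

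Cd22 and Cd72 are inhibitory receptors. Cd22 encodes a Siglec, a lectin for sialic acid that dampens antigen receptor signals. The gene lies on the minus strand of chromosome 7 at chr7:30865402-30880342 (ENSMUSG00000030577) and has 15 annotated TSSs. In pre-B cells a peak of 18.3-fold (28.4th percentile) covered chr7:30878425-30880942, 2518 bp that held 12 of these TSSs, and a separate peak of 5.41-fold and 999 bp held 2 more. The summit of the main peak lay 1076 bp downstream of the main TSS, within a UTR of the annotated transcripts, and 34 bp from the nearest of the inner TSSs. Only 1 TSS, that of a transcript subject to nonsense-mediated decay inside the gene, had no peak in the pre-B line. The smaller peak had an IDR score of 575, against the maximum of 1000 for the main one. In Scid.adh.2C2 cells the nearest peak lay 75037 bp from the main TSS.

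The promoter sequence of the inner RefSeq start of Cd22 at chr7:30879028 is shown because it lies inside the pre-B peak. It covers chr7:30879029-30879176 on the minus strand of GRCm38.p6, the 148 bases before that start, 5′ to 3′, with the letters CCCNNGGG, the core of the site read by the B cell factor EBF1, in capitals.
Cd22: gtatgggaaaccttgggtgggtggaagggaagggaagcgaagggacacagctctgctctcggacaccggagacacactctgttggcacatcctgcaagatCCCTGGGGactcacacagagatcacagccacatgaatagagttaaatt
The match began 48 bases before the start. CCCNNGGG, sought on both strands in the 250 bases before each start, occurred in 11.8% of the 32851 promoters of the RefSeq table, and Cd22 was the only one of the 5 genes found in that table (Cd22, Cd37, Cd38, Cd72 and Cr2) that held it. For Cd22, Cd37 and Cd38 the RefSeq start lies inside the gene, and the 250 bases before it lie downstream of the main TSS. No matches of different motifs overlapped. A match of letters describes the sequence and no binding was measured here.

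Cd72 encodes a C-type lectin-like inhibitory receptor that binds the semaphorin encoded by Sema4d. It lies on the minus strand at chr4:43446462-43454628 (ENSMUSG00000028459). In pre-B cells a peak of 14.1-fold (11.5th percentile) covered chr4:43453162-43454645, 1484 bp that held 7 of the 9 TSSs. Its summit lay 375 bp inside the gene, in a coding exon, and its upstream edge ended 17 bp before the main TSS, so that nearly the whole peak lay over transcribed sequence. A further peak was present upstream in both lines. In Scid.adh.2C2 it measured 13.3-fold (5.88th percentile) and 1182 bp, and in the pre-B line it measured 4.82-fold and 1202 bp, with an IDR score of 962 and summits 98 bp apart. In Scid.adh.2C2 its nearest edge lay 2041 bp and its summit 2645 bp from the TSS, so that the gene counted as marked there through the edge alone and held 0 TSSs inside a peak. At Cd72 the lines shared the upstream peak, and the start itself lay inside a peak in the pre-B line only.

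The promoter of Cd72 is shown because the pre-B peak ended at its start. The 248 bases cover chr4:43454629-43454876 on the minus strand of GRCm38.p6. Capitals mark CAGNTG, the E-box bound by E proteins, and GAGGAA, a motif of ETS factors, each read on this strand or the other.
Cd72: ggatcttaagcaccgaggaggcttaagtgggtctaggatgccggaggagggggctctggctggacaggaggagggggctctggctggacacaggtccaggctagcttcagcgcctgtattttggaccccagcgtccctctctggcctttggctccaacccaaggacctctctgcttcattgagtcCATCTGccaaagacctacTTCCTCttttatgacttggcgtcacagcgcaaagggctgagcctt
The E-box match began 65 bases and the GAGGAA match 47 bases before the RefSeq start. Both lay upstream of the edge of the pre-B peak and so outside it. All 5 genes found in the table held CAGNTG, beside 44.8% of all promoters, and Cd37 and Cd72 held GAGGAA, beside 23.3%. TGTGGT, the RUNX motif, was in none of the 5 and in 14.0% of promoters, and TATAAA, the TATA box, in none of the 5 and in 12.4%.

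**Figure D2:**
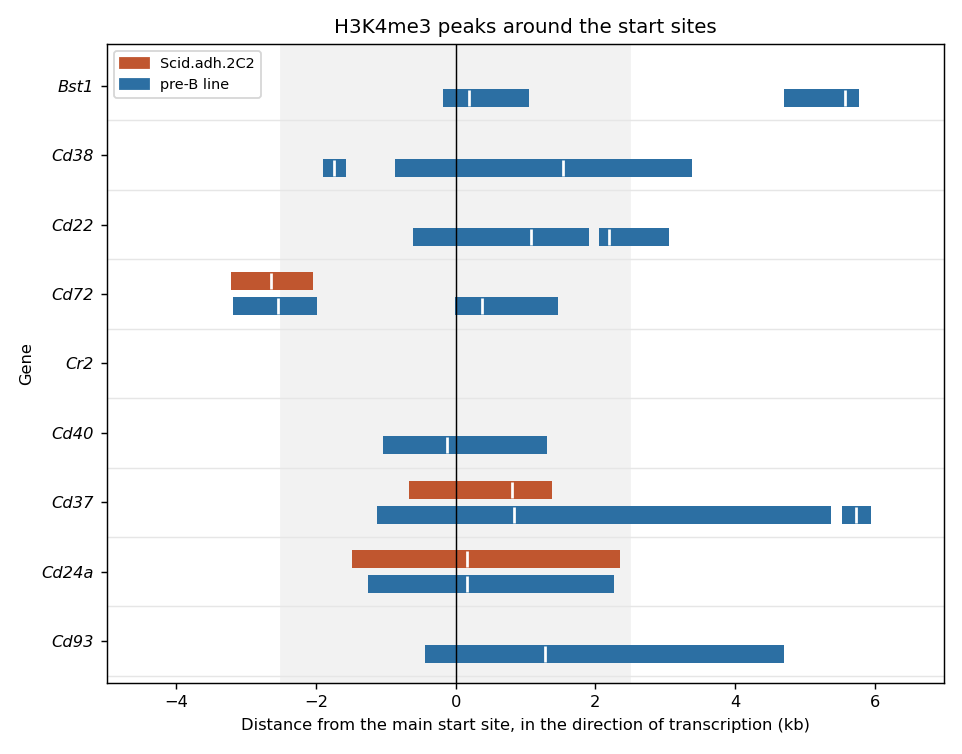
Peaks around the main TSS of each gene, with the distance in the direction of transcription in kb on the horizontal axis (negative values are upstream) and 1 row per gene. Orange bars are Scid.adh.2C2 peaks, blue bars are pre-B peaks, white ticks are summits and the grey area is the 2500 bp either side of the main TSS. Cd37 carries the longest bar, in the pre-B line, the Scid.adh.2C2 bar of Cd72 lies upstream and away from the start, and the row of Cr2 is empty. Peaks deeper in Bst1 and Cd38 lie outside the plotted range.

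Cd37 encodes a tetraspanin, a membrane scaffold of lymphocytes that is abundant on mature B cells. It lies on the minus strand at chr7:45233632-45239115 (ENSMUSG00000030798) and was marked in both lines with a different extent. In Scid.adh.2C2 the peak was 24.1-fold (35.3rd percentile), covered chr7:45237733-45239789, 2057 bp, and held 6 of the 9 TSSs. In the pre-B line the peak was 34.8-fold (99.2nd percentile), covered chr7:45233736-45240246, 6511 bp, and held all 9. It ranked 71 of the 19604 peaks of the list by fold enrichment, and it was wider than 99.4% of them. The summits lay 32 bp apart, 800 bp downstream of the main TSS in Scid.adh.2C2 and 832 bp downstream in the pre-B line, both within UTR sequence. The pre-B peak extended beyond the Scid.adh.2C2 peak at both ends and covered 98.1% of the gene, where the Scid.adh.2C2 peak covered 25.2%.

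The width of the highest Cd37 peak in the pre-B line was 3.17 times that in Scid.adh.2C2, against a median ratio of 1.10 over the 9261 genes marked in both lines, and 98.0% of these had a smaller ratio. A ratio of at least 2 was found at 6.8% of them. Beyond the end of the gene pre-B cells had a further peak of 11.1-fold and 414 bp. This small peak lay outside Cd37 and inside the gene body of the flanking gene Tead2, 1025 bp from a Tead2 TSS and 1872 bp from the nearest Cd37 TSS. The wide peak reached the same Tead2 window, 1588 bp from a TSS, and was the highest peak counted for Tead2, which was not marked in Scid.adh.2C2. On the other side the Cd37 peaks of both lines reached the window of Slc6a16, whose TSS lay 1296 bp from the edge of the Scid.adh.2C2 peak and 839 bp from that of the pre-B peak.

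Part of the sequence between the TSSs of Cd37 is shown because it lay inside the peaks of both lines. The 85 bases cover chr7:45238875-45238959 on the minus strand of GRCm38.p6, from 120 bases before the RefSeq start. They hold none of the 5 motifs searched, so that no base is in capitals. Matches to CAGNTG (175 bases before that start) and GAGGAA (168 and 23 bases before it) lay outside the printed stretch and inside both peaks.
Cd37: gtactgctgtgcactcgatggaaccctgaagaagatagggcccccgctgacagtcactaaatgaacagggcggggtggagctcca

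Cd40 encodes a receptor of the TNF receptor family through which T cells give help to B cells. It lies on the plus strand at chr2:165055627-165072948 (ENSMUSG00000017652). In pre-B cells a peak of 15.8-fold (17.8th percentile) covered chr2:165054588-165056932, 2345 bp. It held 5 of the 6 TSSs, and its summit lay 132 bp upstream of the main TSS. It was the only one of the 8 main pre-B peaks with its summit before the gene, since the other 7 had it between 155 bp (Cd24a) and 1530 bp (Cd38) inside. In Scid.adh.2C2 the nearest peak lay 20132 bp away. It was the promoter peak of Ncoa5, of 35.1-fold, and this neighbour was marked in both lines, with 22.4-fold in the pre-B line.

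Cr2 encodes the complement receptors CD21 and CD35, which bind fragments of C3 on antigen and signal in a complex with the tetraspanin Cd81. It was the only gene of the group without a peak in either line. The gene lies on the minus strand at chr1:195136811-195176716 (ENSMUSG00000026616), and none of its 10 TSSs and no base of its 39906 bp was covered. The nearest peaks lay 44258 bp (Scid.adh.2C2) and 43655 bp (the pre-B line) from the main TSS, beyond the far end of the gene, at the promoter of the related complement regulator Cr1l. Cr1l was marked in both lines, with 19.9-fold and 2844 bp in Scid.adh.2C2 and 22.2-fold and 4206 bp in the pre-B line. Cd81 was marked in both lines, at 27.2-fold in Scid.adh.2C2 and 30.1-fold in pre-B cells. The complement receptor gene was thus unmarked while the gene of its tetraspanin partner was marked.

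The promoter of Cr2 is shown as that of the unmarked gene. The 250 bases cover chr1:195176720-195176969 on the minus strand of GRCm38.p6, and capitals mark matches to CAGNTG on either strand, the last 2 of which adjoin.
Cr2: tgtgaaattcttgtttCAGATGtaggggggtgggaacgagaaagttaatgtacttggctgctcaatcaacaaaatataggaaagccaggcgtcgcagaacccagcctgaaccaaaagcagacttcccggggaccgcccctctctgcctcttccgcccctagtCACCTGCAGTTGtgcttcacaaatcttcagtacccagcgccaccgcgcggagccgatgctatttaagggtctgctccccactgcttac
They began 234, 88 and 82 bases before the RefSeq start. With 11 CpG dinucleotides these 250 bases held more than the same bases of Cd22 (4), Cd37 (8), Cd38 (1) and Cd72 (6), and their CpG ratio, the observed number over that expected from the C and G content, was 0.62. The only unmarked gene thus had the highest CpG ratio among these 5 short sequences. They are not equivalent in position, since those of Cd22, Cd37 and Cd38 lie downstream of the main TSS.

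Bst1 encodes CD157, a surface ectoenzyme attached by a lipid anchor that marks early B-lineage cells, and Cd38 encodes a transmembrane enzyme of the same family. The genes lie one after the other on the plus strand of chromosome 5, Bst1 at chr5:43818885-43843986 (ENSMUSG00000029082) and Cd38 at chr5:43868553-43912375 (ENSMUSG00000029084), with 24566 bp between them. Over the 93491 bp from the start of Bst1 to the end of Cd38, pre-B cells had 7 peaks with 8793 bp in all, and Scid.adh.2C2 cells had 1 peak of 640 bp. Both promoters were marked in the pre-B line only, with peaks of opposite shape.

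At Bst1 the pre-B peak was 24.3-fold (67.5th percentile) and narrow. It covered chr5:43818712-43819945, 1234 bp with 2 of the 4 TSSs, and its width was at the 10.8th percentile of marked genes. Its summit lay 183 bp downstream of the main TSS, in a coding exon. A lower peak of 8.57-fold and 1072 bp followed inside the gene, 2087 bp from the TSS of a retained-intron transcript, and thereby inside the promoter window. Both peaks also fell into the window of a TSS of Fbxl5, a minus-strand gene at chr5:43744615-43821638 whose annotated body overlaps the start of Bst1. The 24.3-fold peak lay inside the body of Fbxl5, so that it cannot be assigned to Bst1 alone. At Cd38 the pre-B peak was 13.6-fold (10.3rd percentile) and broad. It covered chr5:43867677-43871934, 4258 bp with both TSSs, at the 91.9th percentile of width. Its summit lay 1530 bp downstream of the main TSS, inside an intron, the farthest of the 8 main pre-B peaks. A peak of 8.53-fold and 335 bp lay upstream, and 2 more peaks lay deep in the gene, of 10.5-fold and 576 bp and of 11.8-fold and 637 bp, with summits 15505 bp and 16104 bp from the main TSS. Cd38 thus carried 4 peaks of 8.53-fold to 13.6-fold. In both genes the highest pre-B peak covered the main TSS, with lower peaks inside the gene.

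**Figure D3:**
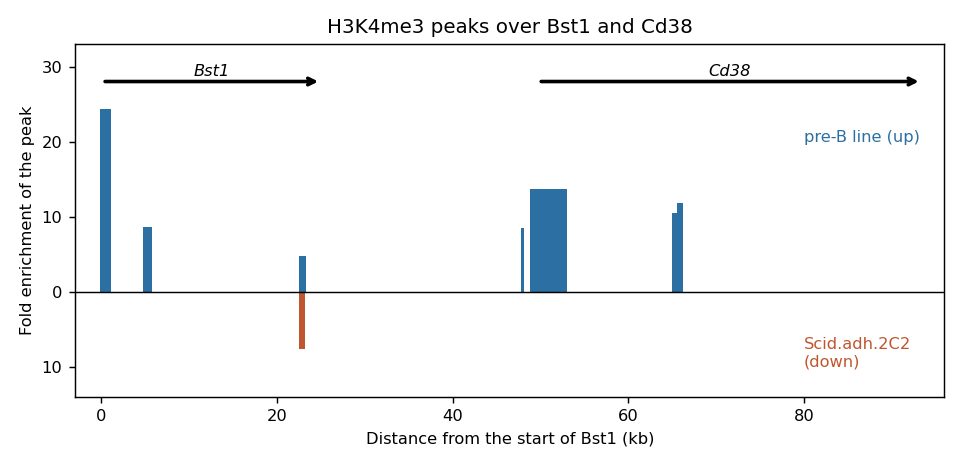
Peaks over Bst1 and Cd38 by distance from the start of Bst1 in kb, with the fold enrichment of pre-B peaks drawn upward and of Scid.adh.2C2 peaks drawn downward, each on a linear scale from 0 within its own list, and arrows for the genes in the direction of transcription. The 7 blue bars of the pre-B line include the high, narrow bar of 24.3-fold at Bst1 and the wide bar of 13.6-fold at Cd38, and the only Scid.adh.2C2 bar lies near the end of Bst1, below a pre-B bar at the same place.

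The single Scid.adh.2C2 peak of this locus, 7.61-fold and 640 bp, lay in an intron of Bst1 at chr5:43841370-43842009. A pre-B peak of 4.70-fold and 854 bp lay at the same place, with its summit 3 bp away. The distance from the main TSS was 22833 bp in Scid.adh.2C2 and 22836 bp in the pre-B line, and the nearest TSS of the gene lay 4256 bp from the Scid.adh.2C2 peak, so that it was outside the promoter window. Bst1 was therefore unmarked at its promoter in Scid.adh.2C2 and carried an intronic peak that both lines shared. The sequence around the shared summits is shown, chr5:43841664-43841784 on the plus strand of GRCm38, with the bases from one summit to the other in capitals, and then the sequence around the Cd38 summit that was present in the pre-B line only, chr5:43870023-43870143 on the plus strand, with the summit base in capitals.
Bst1: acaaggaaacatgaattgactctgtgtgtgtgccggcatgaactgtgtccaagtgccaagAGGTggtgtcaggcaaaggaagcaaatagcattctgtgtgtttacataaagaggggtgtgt
Cd38: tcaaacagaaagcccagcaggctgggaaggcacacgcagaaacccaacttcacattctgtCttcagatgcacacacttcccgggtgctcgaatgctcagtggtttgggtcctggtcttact
Of these 121 bases, 46.3% at Bst1 and 52.9% at Cd38 were G or C, with 1 and 3 CpG dinucleotides.

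Cd24a encodes the heat stable antigen, a small lipid-anchored glycoprotein that is used to divide B cell progenitors into stages and is also carried by immature thymocytes. It lies on the plus strand at chr10:43578284-43584265 (ENSMUSG00000047139) and was marked in both lines at the same position. In Scid.adh.2C2 the peak was 40.0-fold (96.4th percentile) and covered chr10:43577677-43581526, 3850 bp. In the pre-B line it was 17.9-fold (26.3rd percentile) and covered chr10:43577918-43581440, 3523 bp. All 3 TSSs lay inside the peak in both lines, and the summits lay 3 bp apart in an intron, 158 bp and 155 bp downstream of the main TSS. The ratio of widths, the pre-B line over Scid.adh.2C2, was 0.92, and 20.1% of the genes marked in both lines had a smaller one. Cd24a thus stood high in the Scid.adh.2C2 list and below the median in the pre-B list, and Cd37 stood the other way round.

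Cd93 encodes a lectin-like glycoprotein, the AA4.1 antigen of early and transitional B cells, that is also carried by endothelial and myeloid cells. It lies on the minus strand at chr2:148436640-148443563 (ENSMUSG00000027435) and has 1 TSS. In pre-B cells a peak of 16.2-fold (19.1st percentile) covered chr2:148438860-148444003, 5144 bp. It was wider than 98.1% of the peaks of the list and covered 67.9% of the gene, against a median of 8.20% over all genes marked in the pre-B line. The covered share also depends on gene length, 6924 bp here, and the genes compared were not matched for it. The summit of the peak lay 1285 bp downstream of the TSS, in a coding exon. In Scid.adh.2C2 cells the nearest peak lay 227981 bp away, the farthest of all unmarked starts in the group. Its neighbour Thbd, which encodes thrombomodulin and was chosen after its values were seen, was also marked in the pre-B line only, with a peak of 16.5-fold and 3703 bp.

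The 9 promoters were mostly poor in CpG. Over the 500 bp either side of the main TSS, the CpG ratio was under 0.4 for 8 of the 9 genes, from 0.21 at Cd38 to 0.37 at Cr2, and 0.79 at Cd24a, beside a median of 0.56 over 21853 protein-coding genes. Low ratios were not particular to this group. The median was 0.29 for the 9 genes, 0.28 for the other B cell surface genes and 0.29 for the T cell surface genes listed below. Of all protein-coding genes 39.5% had a ratio under 0.4, and of these 13.6% were marked in Scid.adh.2C2, 16.4% in the pre-B line and 5.18% in the pre-B line only. Of the 8 CpG-poor genes described here 2 were marked in Scid.adh.2C2 cells, 7 in pre-B cells and 5 in pre-B cells only. The marked share of all genes rose with the CpG ratio, from 5.35% in the lowest decile to 82.1% in the highest in the pre-B line, and from 4.58% to 80.5% in Scid.adh.2C2. Cd24a, the only CpG-rich gene of the group, lay in the eighth decile, where 76.3% (the pre-B line) and 73.2% (Scid.adh.2C2) of genes were marked, and it was marked at its start in both lines.

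**Figure D4:**
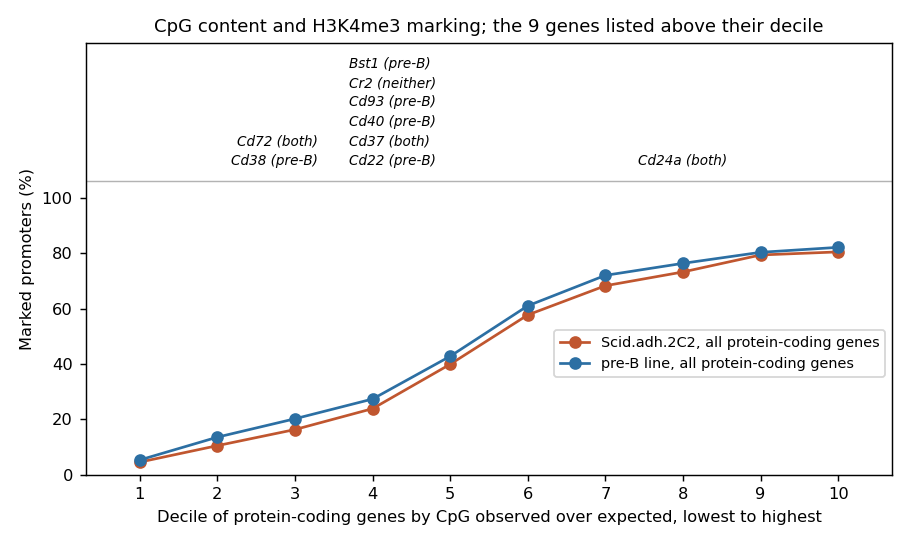
Share of protein-coding genes with a marked promoter (vertical axis, percent) in each decile of genes by CpG ratio around the main TSS (horizontal axis, lowest to highest), for Scid.adh.2C2 in orange and the pre-B line in blue. The 9 genes are named above their decile with the lines in which they were marked, 2 in the third decile, 6 in the fourth and Cd24a in the eighth. Both curves rise, from 4.58% to 80.5% in Scid.adh.2C2 and from 5.35% to 82.1% in the pre-B line.

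Of 14 listed ligands and signalling partners of these receptors, 11 were marked in the pre-B line and 8 in Scid.adh.2C2, 8 in both, 3 in the pre-B line only and none in Scid.adh.2C2 only, beside the shares of all genes given above. Those in the pre-B line only were St6gal1 (32.5-fold), whose product makes the sialic acid ligand of Cd22, Lyn (27.3-fold), the kinase that phosphorylates Cd22, and C3 (9.17-fold), the source of the Cr2 ligand. Ptpn6, which encodes the phosphatase recruited by Cd22 and Cd72, was marked in both lines, at 30.5-fold and 1898 bp in Scid.adh.2C2 and at 28.2-fold and 5278 bp in the pre-B line. Cd40lg, the ligand of Cd40 on activated T cells, was marked in neither line, and of the Cd40 adaptors Traf1, Traf2, Traf3 and Traf6 were marked in both lines and Traf5 in neither. The semaphorin gene Sema4d, the Cd72 ligand, was marked in both lines, at 18.7-fold in pre-B cells and 28.5-fold in Scid.adh.2C2.

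Among 29 other B cell surface genes 18 were marked in the pre-B line and 9 in Scid.adh.2C2, with 9 in the pre-B line only, 9 in both and 11 in neither. The shares over all protein-coding genes were 48.2%, 45.5%, 5.96%, 42.2% and 48.6% in the same order. Cd81, Pecam1 and Siglecg are also among the partners above, so the lists are not independent. The 5 with the highest fold enrichment among those marked in the pre-B line only were Cd79b (29.0-fold) and Cd79a (27.9-fold), the signalling chains of the B cell receptor, the BAFF receptor gene Tnfrsf13c (28.3-fold), Fcrl1 (20.2-fold) and Cd180 (19.2-fold). Of the genes described here that were marked in the pre-B line only, Bst1 had the highest fold enrichment, between those of Cd79a and Fcrl1, and Cd22, Cd93, Cd40 and Cd38 lay below all 5. By percentile in the pre-B list, the genes of that state nearest to each were Fcgr2b for Cd40 and Cd93 (15.7-fold), Cd74 for Cd38 (13.3-fold) and Tnfrsf13b for Cd22 (18.9-fold). Nearest to Bst1 was Cd79a, but it lay 19.6 percentile points away, against at most 3.61 for the pairs just named. Of the genes marked in both lines, Cd80 came nearest to Cd37, Ptprc to Cd24a and Il7r to Cd72 by the same pre-B percentiles. In the Scid.adh.2C2 list the first 2 of these pairs lay far apart, with Cd37 at the 35.3rd and Cd80 at the 84.1st percentile, and Cd24a at the 96.4th and Ptprc at the 21.5th. Cd72 lay at the 5.88th and Il7r at the 19.3rd. Cr2 shared its unmarked state in both lines with 11 genes, among them Fcer2a, Cxcr5, Cd83, Cd86 and Cd9. The order of likeness rests on the pre-B list alone and carries no test.

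For contrast, of 18 T cell surface genes 5 were marked in pre-B cells, beside 48.2% of all protein-coding genes, and 10 in Scid.adh.2C2, beside 45.5%. In Scid.adh.2C2 only, 7 were marked, beside 3.28%, led by Cd3e (41.5-fold), Thy1 (38.6-fold), Cd3g (38.0-fold), Cd2 (30.4-fold) and Cd247 (24.9-fold). Cd27 is in this list and in that of the B cell surface genes. Cd6 (19.9-fold) and Cd5 (9.50-fold) were marked in the pre-B line only. Cd3g shares its Scid.adh.2C2 peak with Cd3d, which was marked in both lines, so their values are not independent.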

How the data were processed

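H3K4me3 ChIP-seq peak lists of Scid.adh.2C2 and pre-B cells were used, 1 per line, each from 2 ChIP libraries and 1 input library, grouped by their labels. Reads had been trimmed by the authors (Trim Galore 0.6.7), mapped to mm10 (GRCm38) with Bowtie2 2.4.4, used for narrow peak calling with MACS2 2.2.7.1 at a q-value of 0.05 against input, and filtered to the optimal set at an irreproducible discovery rate (IDR) of 0.05. IDR compares peak ranks between the replicates. The deposited score is the scaled IDR. The deposited fold ratio is the enrichment at the summit over the local background. The deposited −log10 p-value served to equalise list lengths. All were used unchanged and only within a list. Filtering on both replicates leaves out weak peaks, and the summit value of a list scales with its signal and input.

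TSSs and gene bodies came from GENCODE vM21, promoter sequences from RefSeq on GRCm38.p6 (5 of the 9 genes matched), and CpG ratios and other sequence from the GRCm38 genome. Where a peak reached several windows it was counted for each gene. The genes and lists were chosen with earlier results of these data known. All 9 genes are named, with up to 5 genes per list and line marked in 1 line only, by fold enrichment, genes sharing a peak or holding the nearest one, and genes of like state. The CpG limit of 0.4, the CpG window and the gene coverage were chosen for this description. Alternatives were other windows, summits, TSS sets, peak thresholds and list lengths. The marking step was tested on simulated data. 1 gene of the lists is not reported here. Protein sequences and the pro-B cell data were not used here. Python 3.11.15, numpy 2.4.6, pandas 2.3.3 and matplotlib 3.10.9 were used.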

Additional observations from a re-analysis of the deposited data

How the results depend on the processing

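The number of genes marked in the pre-B line was 8 under all 8 alternatives and under the added count of main TSSs inside a peak, chosen after seeing the data. The number marked in Scid.adh.2C2 was 2 with a window of 1000 bp, with the summit inside the window and with the main TSS inside a peak, since the Cd72 peak lies upstream, and it was 4 with a window of 5000 bp, since the Bst1 intronic peak then counts. The number marked in the pre-B line only was 6 and 4 in these cases. With peaks of at least 10-fold, an IDR score of 1000, equal list lengths, the most upstream TSS or protein-coding transcripts alone, the 18 fold enrichments and all counts kept their values. The absence of a Cr2 peak held under every alternative. No paired analysis was possible because the 2 replicates of a line are combined in 1 list, which also prevented leaving out a replicate, and the lists carry no depth, so that it is unknown how weak a peak could have been detected.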
